A study of Mus musculus with 20 samples.

Results

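This account covers a stretch of mouse 18S ribosomal RNA, the 340 positions that follow position 330 and end at position 670, out of 1840 in the deposited table. They were taken by their number in that table alone. The series recorded where reverse transcriptases stopped on, or miscopied, 18S rRNA from female mouse embryonic fibroblasts (strain given as F1 of 129S1/CastEiJ x 129S1). Cells were left untreated or were kept in 0.5% dimethyl sulfate (DMS) for 5 min before the RNA was extracted. Reverse transcription was of 4 labelled kinds. SSIII, in common use short for SuperScript III, is an engineered retroviral enzyme and was run at 55 °C. AMV, the enzyme of avian myeloblastosis virus, was run at 42 °C. TGIRT-II, a thermostable group II intron enzyme, was run at 60 °C. The labels do not say what the kind called Zhao is. Each kind has 2 lettered samples per treatment, which gives 8 untreated and 8 DMS samples, and 4 further SSIII samples without a letter were made without or with Mn2+.

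In the small ribosomal subunit, this part of the RNA runs from the 5′ domain to a conserved loop that lies close to the site where codons are read. DMS methylates the pairing face of adenines and cytosines that no base pair or bound protein protects. A reverse transcriptase that meets such a base may end its cDNA there, seen as a stop, or insert a wrong base and go on, seen as a mutation. Mammalian 18S rRNA also carries many methyl groups and pseudouridines of its own, and some natural modifications are known to halt reverse transcriptases without any DMS. The table holds no bases and no list of modified positions. No sequence is therefore shown, no position was matched to a base or to a natural modification, and the place of this stretch in the folded RNA was not checked.

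Every value below is a deposited fraction written in percent. A stop fraction and a mutation fraction are given for each library and position, with no read numbers. Depth is therefore not given and no counting interval is attached. Some values equal ratios of small whole numbers, such as 9.09% in an untreated library at position 518. They may rest on few reads. The 16 lettered libraries form 8 pairs, each a DMS library with the untreated library that the table names as its control. The pair numbers 1 to 8 are names only. By name stem and an unbroken run of library numbers they fall into 4 library sets of 2 pairs. The names do not say which set holds which kind of reverse transcription, so a set is treated here as a batch and nothing more. DMS effects were tested with limma on log2(percent + 0.1), paired, over all 18S positions with a value in each of the 16 libraries (1776 for stops, 1840 for mutations). Adjusted p-values are Benjamini-Hochberg values over those positions, and a position is called below 0.05. The pairs enter as independent, although 2 pairs of a set may resemble each other. A fit with the set as a random block is given where it ends a call.

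Some libraries stood apart in the number of values at exactly 0. Over the stretch the untreated libraries of pairs 2, 3 and 4 had stop fractions of 0 at 20.3%, 32.1% and 22.1% of positions and mutation fractions of 0 at 25.6%, 21.5% and 14.7%. The other 5 untreated libraries had at most 2.65% and 3.24%. Most of these zeros lay in the last 170 positions. There the control of pair 3 had stop fractions of 0 at 64.1% of positions, against 0% in the first 170. Mean stop fractions over the stretch ranged from 0.514% to 1.37% in the 8 untreated libraries and from 0.636% to 1.08% in the 8 DMS libraries. Mean mutation fractions ranged from 0.217% to 0.720% and from 0.235% to 0.812%.

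**Figure D1:**
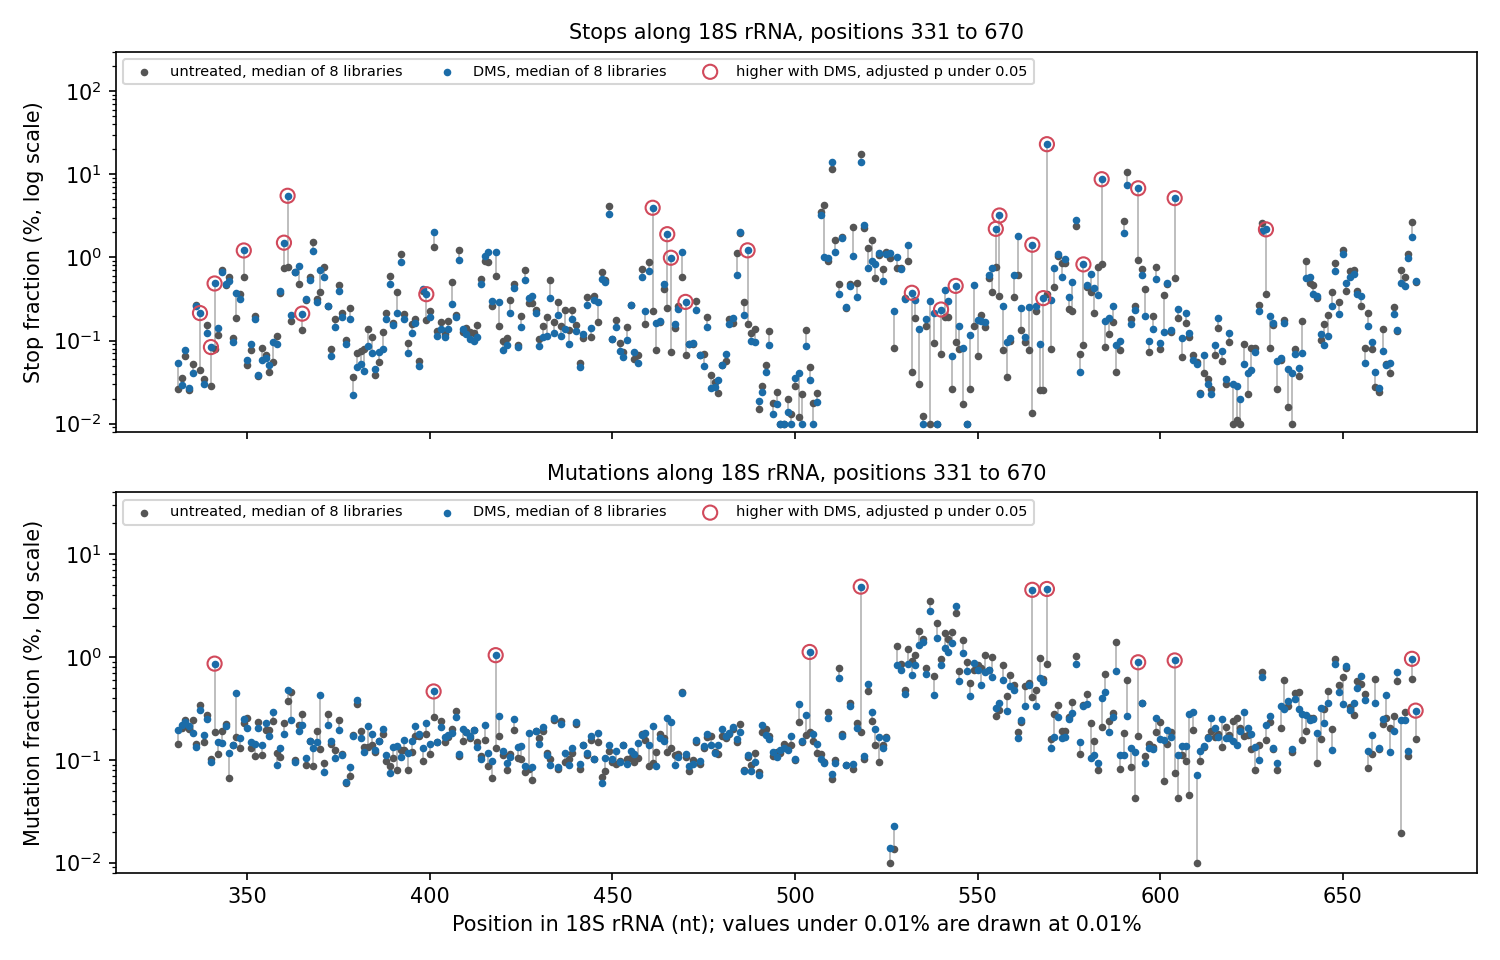
Median stop fraction (top) and mutation fraction (bottom) of the 8 untreated and the 8 DMS libraries at each of the 340 positions, in percent on a log scale, with grey lines joining the 2 medians of a position. Red circles mark the 26 positions called higher with DMS in stops and the 11 in mutations, and the raised mutation fractions between 528 and 554 are present in both treatments.

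Untreated RNA already held a few strong stops, and these sat together. The median stop fraction over the 8 untreated libraries was above 10% at 3 positions and above 1% at 27, while the median over all 340 positions was 0.162%. The 6 highest were 518, 510, 591, 508, 449 and 507. Of these, 4 lie between 507 and 518.

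The library sets did not stop at the same places in untreated RNA. At position 518 the untreated stop fractions were 64.3% and 61.0% in set 1, 20.3% and 9.09% in set 2, 29.9% and 14.6% in set 3, and 3.60% and 3.51% in set 4. Set 1 was far above the rest and set 4 below them, with no overlap between the 2 sets. At position 510 the order was different. The 2 untreated libraries of set 4 had 78.9% and 78.8%, and the other 6 lay between 5.26% and 21.7%. Both ends of that range were the controls of set 2. Position 507 had 49.8% and 50.7% in set 4, 5.22% and 5.79% in set 3, 1.88% and 0.800% in set 1, and 0% in both libraries of set 2. So the libraries of set 4 stopped most at 507 and 510, and those of set 1 most at 518. The levels of set 2 are uncertain, since its controls had many zeros and these values may rest on few reads. The F tests that follow take them as they stand.

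At position 591 the untreated stop fraction ran from 3.29% through a median of 10.6% to 28.5%, with the highest values in set 4 (24.5% and 28.5%). At 508 it ran from 1.24% through 4.26% to 9.21%, with the highest values in set 1. The untreated level differed between sets at 518, 510, 591, 508 and 507, with adjusted p-values of 0.0149, 0.0394, 0.0230, 0.00799 and 0.00307 in limma's F test over the 4 sets, a test added after the data were seen. At 449, from 1.49% to 4.94%, it was not called (adjusted p = 0.395, limma F test). Such differences were common. They were called at 152 of the 340 positions in stops (44.7%) and at 34.8% of the positions of all 18S. DMS was not called to change any of these 6 stops, with adjusted p-values between 0.202 and 0.992 (limma). Stops were still lower with DMS at 508 in 8 of 8 pairs (mean -1.74 points) and at 591 in 7 of 8 (-3.48 points). At 518, 510, 449 and 507 some pairs were higher and some lower.

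**Figure D2:**
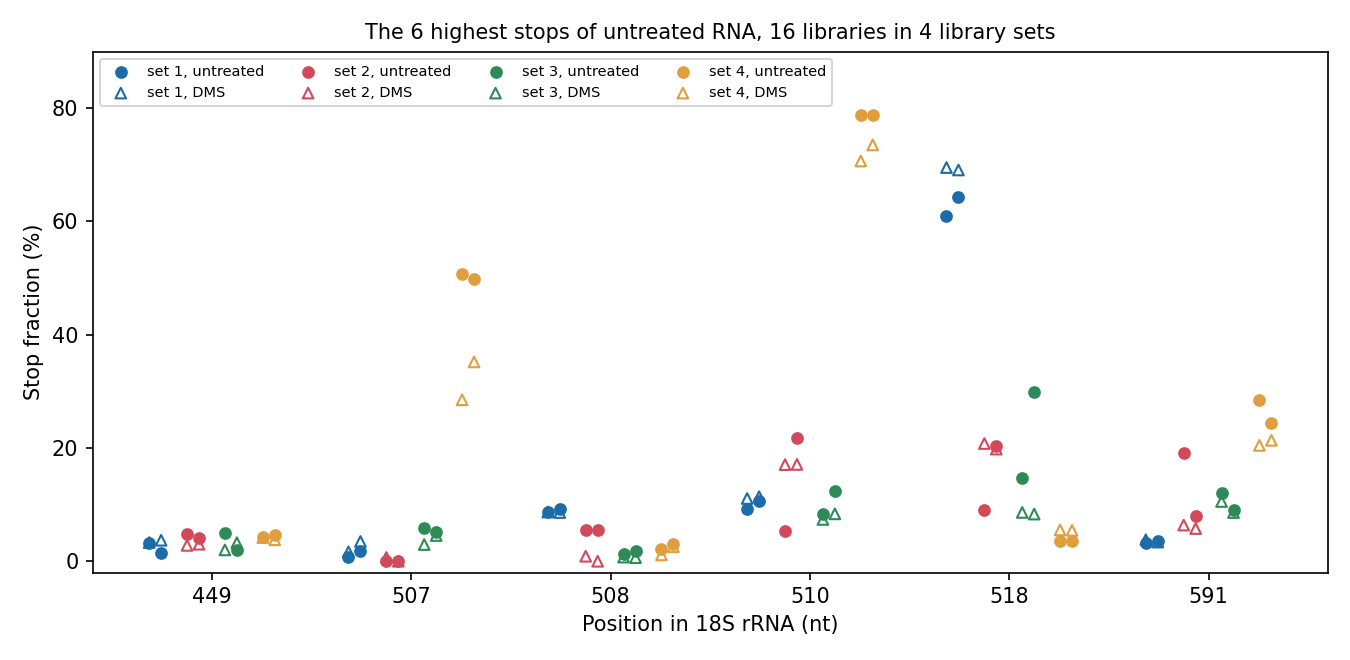
Stop fraction in percent (linear axis) at the 6 positions with the highest untreated medians, for 8 untreated (filled circles) and 8 DMS (open triangles) libraries coloured by library set. The libraries of set 4 are highest at 507, 510 and 591 and those of set 1 at 518, in untreated and DMS-treated RNA.

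DMS raised stops sharply at a small number of positions. The stop fraction was called higher at 26 of the 340 positions (7.65%) and lower at 1. Over all 18S, 8.33% of positions were called higher and 1.63% lower, so the share here is near the background and is no property of this stretch. Both parts of the stretch contributed equally, with 13 called positions among the first 170 and 13 among the last 170. At 13 of the 340 positions all 8 DMS libraries lay above all 8 untreated libraries, against 3.21% of positions over all 18S. With the library set as a random block 18 positions were called, all of them among the 26. The calls that ended were at 341, 360, 365, 532, 540, 544, 555 and 594, with adjusted p-values from 0.0512 to 0.101 (limma). On a scale of percentage points 15 were called, all of them among the 26.

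The largest rise was at position 569. Untreated stop fractions ran from 0% through a median of 0.367% to 10.6%, and DMS values from 13.4% through 23.0% to 29.0%. The groups did not overlap, and the stop fraction was higher in 8 of 8 pairs. The mean difference was 20.02 ± 6.04 percentage points (SD, n = 8 pairs; log2 difference 5.09 ± 0.76 SE, limma adjusted p = 0.00342). The untreated values of 10.6% and 3.26% were those of set 3, and both untreated libraries of set 2 were at 0%, so the size of the log2 difference rests partly on the pseudocount.

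Position 584 was the next largest. Its untreated values ran from 0.224% through 0.837% to 3.33% and its DMS values from 5.75% through 8.73% to 13.2%, again without overlap. The difference was 7.53 ± 1.84 points (SD, n = 8 pairs; limma adjusted p = 0.000432). Position 604, some way further along, went from 0%, 0.565% and 1.84% (lowest, median and highest library) to 3.80%, 5.17% and 7.58%. Its difference of 4.62 ± 0.950 points (SD, n = 8 pairs; limma adjusted p = 0.00159) was one of the most even, between 3.34 points in set 4 and 5.65 in set 3. Position 594, which lies between them, was less firm. It rose in 8 of 8 pairs by 5.00 ± 3.84 points (SD), but the groups overlapped, with the control of pair 4 at 8.91%, and the call (limma adjusted p = 0.0459) ended with the set as a random block (adjusted p = 0.101).

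Among the first 170 positions, where controls had few zeros, the rises were smaller but as clear. At 361, untreated stops ran from 0.465% through 0.762% to 1.71% and DMS stops from 3.29% through 5.51% to 6.02%. At 461 they ran from 0.0865% through 0.227% to 0.429% and from 1.42% through 3.96% to 5.42%. Neither position showed any overlap between treatments. The differences were 4.44 ± 1.07 and 3.50 ± 1.59 points (SD, n = 8 pairs), with limma adjusted p-values of 0.000302 and 0.000313, the first of them the lowest of the 10 leading stops.

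Close to 461, position 465 rose from a median of 0.249% to 1.90% and position 466 from 0.0729% to 0.991%, so that 461, 465 and 466 form a small group of raised stops. Position 487 rose from a median of 0.157% to 1.22%, but very unevenly. Its mean difference was 0.392 points in set 1, 0.301 in set 2, 1.96 in set 3 and 6.14 in set 4. The 2 libraries of set 4 treated with DMS were highest (6.29% and 6.55%), although the differences between sets were not called there (adjusted p = 0.0788, limma F test).

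The other leading stops were at 556 and 565. Position 556 went from a median of 0.348% to 3.20%, a difference of 2.99 ± 1.20 points (SD, n = 8 pairs). Position 565 went from a median of 0.0133% to 1.42%, a difference of 2.31 ± 2.10 points (SD), with 0% in 4 of the 8 untreated libraries. Their groups overlapped at 556 and did not at 565.

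Some called stops were neighbours. Of the 26 positions, 10 form 5 adjacent pairs, namely 340 and 341, 360 and 361, 465 and 466, 555 and 556, and 568 and 569. Adjacent calls were not counted outside the stretch, so whether this number is unusual was not tested. The calls at 341, 360 and 555 ended with the set as a random block (adjusted p = 0.0569, 0.0512 and 0.0769, limma). The later position had the larger difference in 4 of the 5 pairs. At 568 and 569 the mean differences were 0.317 and 20.02 points, and at 360 and 361 they were 0.576 and 4.44 points. The exception was 465, at 1.77 points, with 466 at 1.01. Which base a stop is assigned to is not given in the sources used here, so an adjacent pair may or may not stand for 2 modified bases.

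The smallest called rises were at 340 (0.0494 points), 365 (0.0738) and 337 (0.134). The one called fall was at 639, from a median of 0.174% to 0.0710%, lower in 7 of 8 pairs. Its call ended with the set as a random block (adjusted p = 0.0571, limma). It also ended with a pseudocount of 1%, in percentage points and in most fits that left out a pair.

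Averaged over the stretch, the difference in stops was smaller than the spread between pairs. The mean difference over the 340 positions was 0.0809 ± 0.171 points (SD, n = 8 pairs), positive in 7 of 8 pairs (exact sign-flip permutation test, two-sided, p = 0.219). Pair 4 was the exception at -0.297 points, and its control was the untreated library with the highest mean. Without pair 4, the only pair below 0, the mean was 0.135 points. Without the 10 most changed positions it was -0.000172 points. The rise was thus carried by a few positions, and the median over positions was -0.00553 points.

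**Figure D3:**
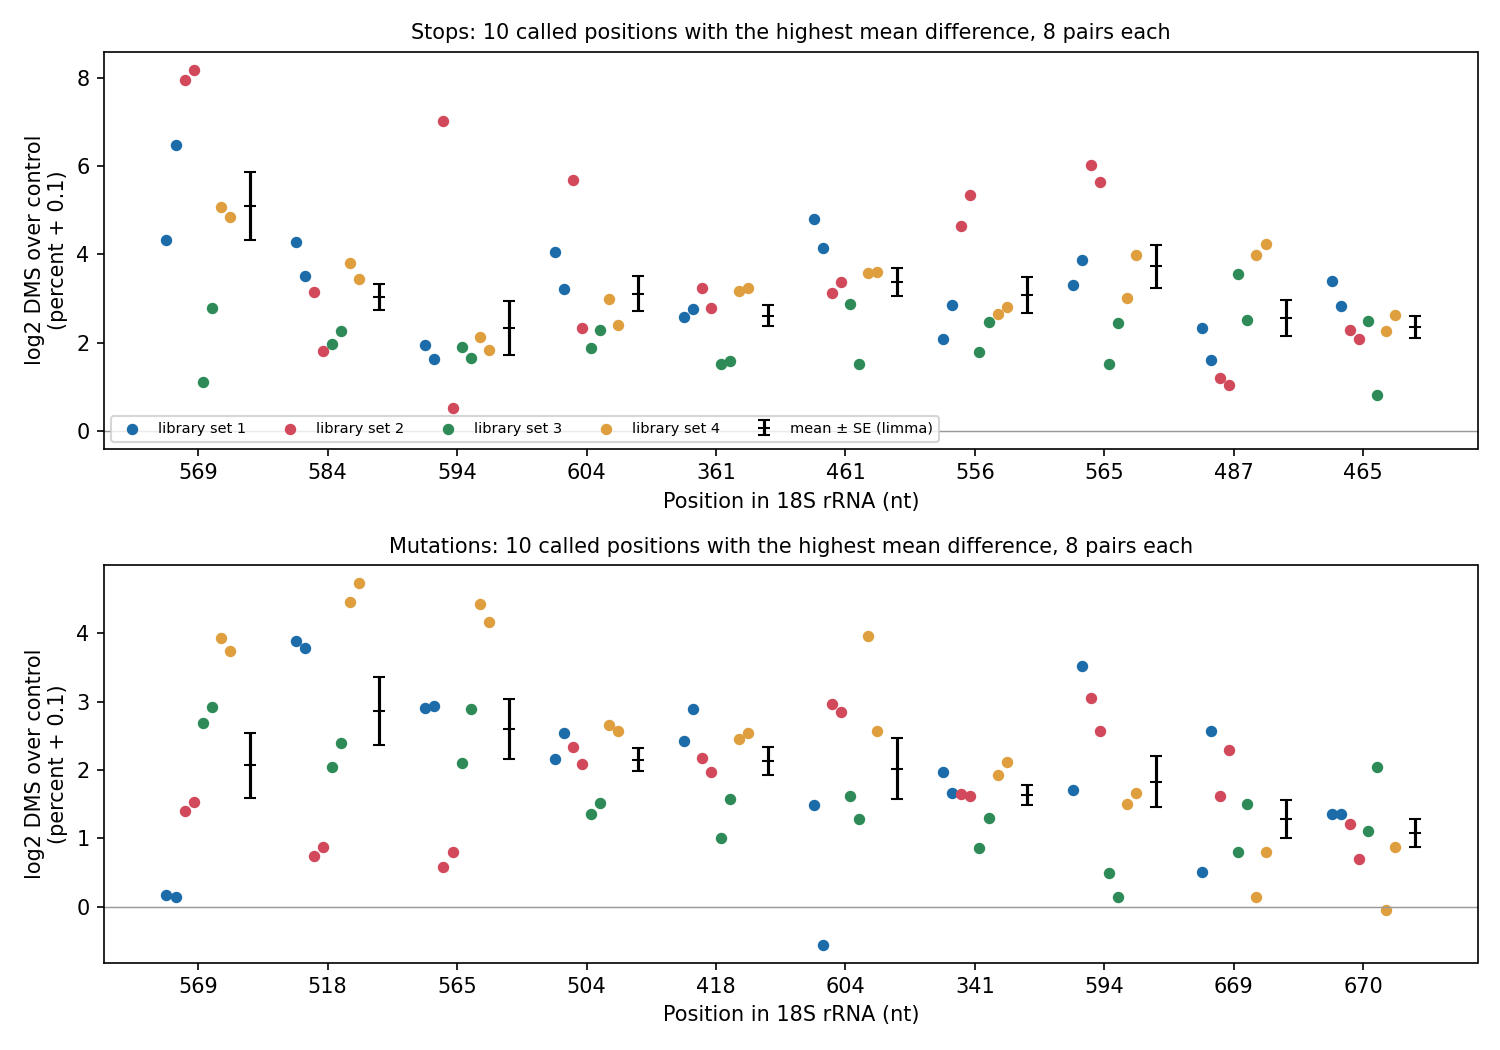
The log2 ratio of the DMS library to its control, computed on percent + 0.1, for each of the 8 pairs at the 10 called positions with the highest mean difference in stops (top) and in mutations (bottom). Points are coloured by library set and the black bar is limma's mean ± SE. All stop ratios lie above 0, and at 569, 518 and 565 the mutation ratios of 1 or 2 sets lie well below the others.

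Mutations rose at fewer positions. The mutation fraction was called higher with DMS at 11 of the 340 positions (3.24%) and lower at 0, where limma's unadjusted p was under 0.05 for 11 lower positions. Over all 18S, 4.67% of positions were called higher and 0% lower. The share here is not far from that background. Of the 11, 3 lie among the first 170 positions and 8 among the last 170. The number was fragile, between 5 and 8 when any 1 pair was left out, and 5 without the 3 pairs whose controls had many zeros. At 4 positions all DMS libraries lay above all untreated libraries, against 1.09% of positions over all 18S.

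The firmest mutation calls were modest in size. At position 504, untreated mutation fractions ran from 0.0912% through 0.187% to 0.356% and DMS values from 1.06% through 1.12% to 1.44%. At 418 they ran from 0.0843% through 0.130% to 0.458% and from 0.806% through 1.04% to 1.39%. At 341 they ran from 0.0841% through 0.188% to 0.554% and from 0.603% through 0.862% to 1.09%. None of the 3 showed overlap between treatments. The differences were 0.973 ± 0.176, 0.883 ± 0.233 and 0.631 ± 0.152 points (SD, n = 8 pairs), with limma adjusted p-values of 0.000952, 0.00129 and 0.000952. Their rises ranged over the 4 sets from 0.735 to 1.17 points at 504, from 0.676 to 1.20 at 418 and from 0.487 to 0.818 at 341, and differences between sets were not called (adjusted p = 0.510, 0.480 and 0.635, limma F test). These 3 positions kept their call under each of the 20 alternative fits, which no other called mutation did.

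The largest mutation rises were at 569, 518 and 565, and they were uneven. At 569 the untreated values ran from 0.490% through 0.848% to 1.25% and the DMS values from 1.31% through 4.59% to 8.90%, a difference of 4.10 ± 3.64 points (SD, n = 8 pairs; limma adjusted p = 0.0424). At 518 they ran from 0.123% through 0.188% to 1.44% and from 0.391% through 4.84% to 7.61%, a difference of 3.97 ± 2.80 points (adjusted p = 0.0149). At 565 they ran from 0.138% through 0.409% to 1.05% and from 0.570% through 4.51% to 5.49%, a difference of 3.26 ± 1.91 points (adjusted p = 0.0147). All 3 rose in 8 of 8 pairs, but in each of them 1 or 2 library sets rose far less than the others.

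The remaining called mutations were 604, 594, 669, 670 and 401, with mean differences from 0.221 points at 401 to 0.688 at 604. In the controls of pairs 3 and 4, the mutation fraction was 0% at 604, 594, 669 and 670. At 669, called in mutations, the call ended with the set as a random block (adjusted p = 0.0505, limma). Its difference was 0.574 ± 0.565 points (SD, n = 8 pairs), with 1.90 points in pair 6 and at most 0.651 in any other.

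Stops and mutations were both called at 5 positions, 341, 565, 569, 594 and 604, which is 19.2% of the 26 called stops and 45.5% of the 11 called mutations. The stop calls at 341 and 594 ended with the set as a random block (adjusted p = 0.0569 and 0.101, limma). Of all 340 positions, 7.65% were called higher in stops and 3.24% in mutations. Shared calls were not counted outside the stretch, so whether 19.2% and 45.5% are unusual for 18S was not tested. At 569, DMS raised stops by 23.1 points in set 1, 26.8 in set 2, 16.1 in set 3 and 14.1 in set 4. Mutations rose by 0.150, 1.45, 6.46 and 8.35 points in the same order. Sets 1 and 2 had the larger rises in stops and the smaller rises in mutations.

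At position 565 the set that differed was another. DMS raised stops by 1.24, 5.63, 0.932 and 1.44 points in sets 1 to 4 and mutations by 3.77, 0.264, 4.31 and 4.69 points. Taking the mutation part as the rise in mutations over the summed rise of both readouts, it was 75.2%, 4.47%, 82.2% and 76.5% in sets 1 to 4. At 569 it was 0.645%, 5.13%, 28.7% and 37.2%. Set 1 thus recorded 569 almost wholly as stops and 565 mostly as mutations, while set 2 recorded both mainly as stops. It is not a proportion of reads, since the denominators of stops and mutations are not known to be the same.

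Position 518, the strongest untreated stop of set 1, was called in mutations only. Its mutation fraction rose by 3.05, 0.217, 5.54 and 7.06 points in sets 1 to 4. Its stop fraction changed by 6.67, 5.58, -13.8 and 1.94 points and was not called (limma adjusted p = 0.992). In set 3 the stop fraction fell from 29.9% to 8.33% in pair 5 and from 14.6% to 8.62% in pair 6. At 604 and 594 stops were the larger part in every set, with mutation parts of at most 27.4% and 41.1%. At 341 the mutation part ran from 24.3% in set 2 to 100% in set 3, where stops did not rise.

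The differences between sets in the DMS effect were tested with limma's F test on the paired log2 differences. In mutations 0 of the 340 positions were called, with an unadjusted p under 0.05 at 31. The adjusted p was 0.0750 at 569, 0.0750 at 518 and 0.0953 at 565. In stops 8 of the 340 positions were called (2.35%), against 1.63% over all 18S. Among them 341 was also called for DMS, and there stops changed by 0.777, 1.52, -0.0270 and 0.134 points in sets 1 to 4 (adjusted p = 0.0378). For stops at 569 and 565 the adjusted p was 0.0673 and 0.0656. At 594 and 604 it was 0.853 and 0.642 for stops and 0.433 and 0.454 for mutations. Each of these tests concerns 1 readout, and the mutation part itself was not tested.

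**Figure D4:**
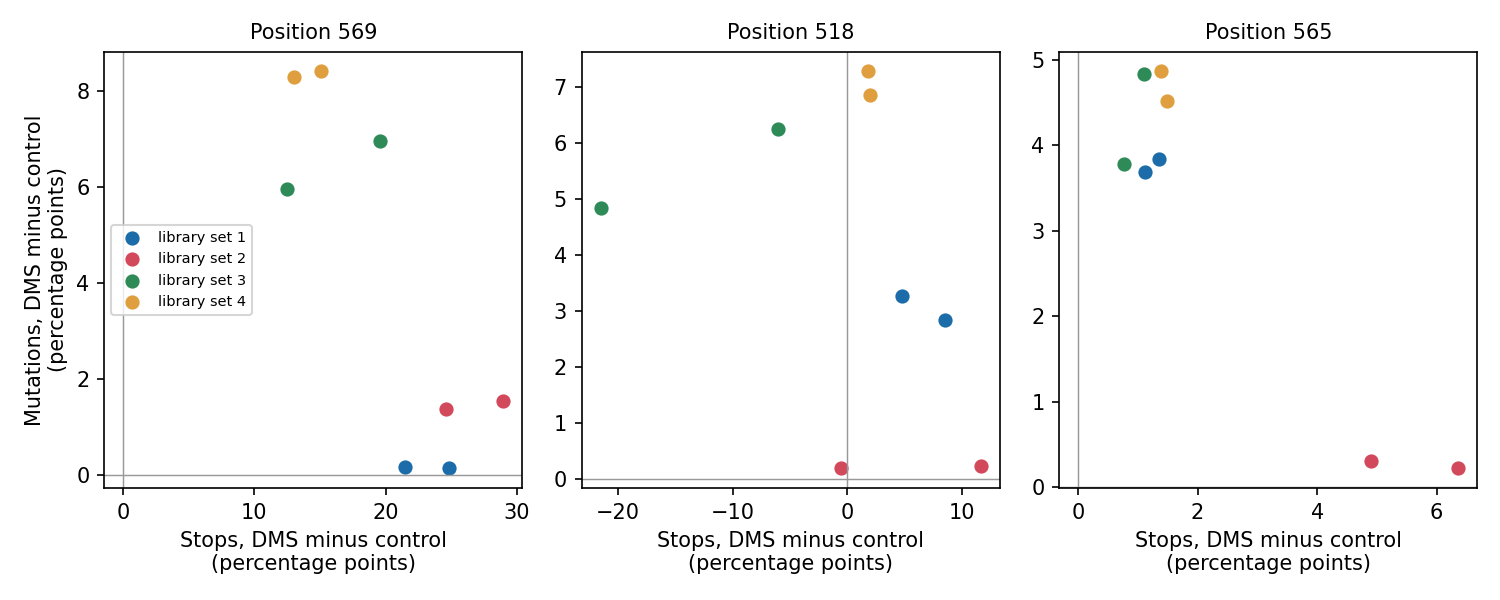
DMS minus control in stops (horizontal, percentage points) against DMS minus control in mutations (vertical, percentage points) at positions 569, 565 and 518, with 1 point for each of the 8 pairs coloured by library set. At 569 sets 1 and 2 lie low and to the right, at 565 set 2 alone does, and at 518 set 2 lies near 0 in mutations.

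Untreated RNA also had a stretch of raised mutation fractions with sharp edges. It runs from position 528 to 554, the longest run of untreated medians above 0.4%, a threshold chosen after the values were seen. The median of the untreated medians was 1.00% over these 27 positions and 0.157% over the other 313. At 526 and 527 the untreated medians were 0.00746% and 0.0137%, and at 528 the median was 1.27%, with the lowest library at 0.478%. At the far end it was 1.00% at 554 and 0.270% at 555. All 8 untreated libraries shared the stretch. Its mean was between 3.57 and 7.10 times the mean of the other positions in the same library.

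The 6 highest untreated mutation fractions, at 537, 544, 539, 534, 543 and 541, were all inside this stretch. Position 537 ran from 1.59% through 3.51% to 9.83%, with the highest values in set 3. Position 544 was the most even, from 2.19% through 2.66% to 3.43%. The level differed between sets at all 27 positions (limma F test), against 38% of positions over all 18S. These shares are not like for like. The 27 positions were chosen for high untreated values, and adding 0.1 before the log2 shrinks differences between sets at low values. DMS was called at 0 of the 27 in mutations, with limma's unadjusted p under 0.05 at 5, and the mean difference was -0.105 points. The mean difference was below 0 at 25 of the 27 positions. The exceptions were 549 and 544, the latter higher with DMS in 8 of 8 pairs (limma adjusted p = 0.0695).

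In the libraries of the Mn2+ experiment the stretch did not stand above the other positions. In the SSIII library without Mn2+ and without DMS, the mean mutation fraction was 0.616% inside 528 to 554 and 0.785% outside it. With Mn2+ it was 0.419% and 0.857%. The value inside was close to the lowest lettered control (0.664%), and the value outside was above all 8 of them (0.151% to 0.550%). What makes the lettered libraries differ here from the unlettered ones was not tested.

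**Figure D5:**
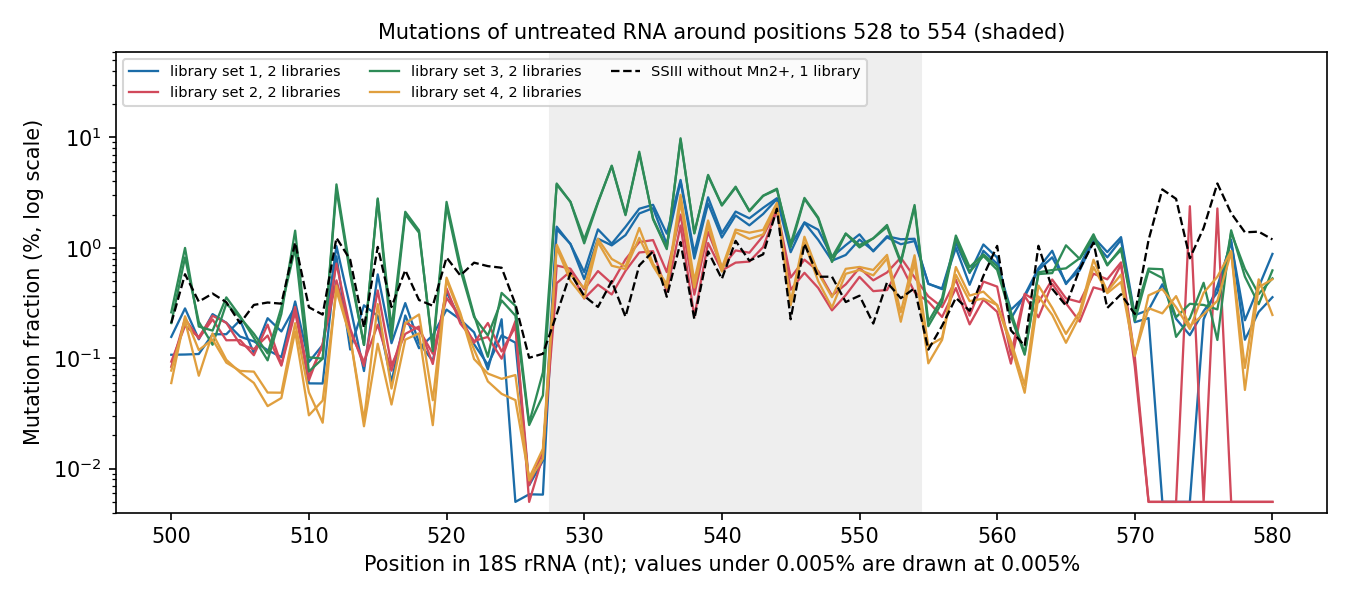
Mutation fraction of untreated RNA in percent (log scale) from position 500 to 580 in the 8 lettered libraries, coloured by library set, and in the unlettered SSIII library without Mn2+ (dashed). All 8 lettered libraries rise between 527 and 528, where the shaded stretch of 27 positions begins. The dashed line lies at 0.616% on average inside it and at 0.785% over the other 313 positions.

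The unlettered SSIII pair was not used in any fit, so it gives a separate look at the called positions. It has 1 library per condition and no test. Without Mn2+, the stop fraction was higher with DMS at 24 of the 26 called stops, with a median difference of 1.17 points. At the other 314 positions it was higher at 30.9%, with a median of -0.0883 points. The mutation fraction was higher at 11 of the 11 called mutations, with a median of 1.24 points, and at 55.9% of the other 329 positions. The 2 called stops that were not higher were 360 and 365.

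Single positions were of like size in that pair at some sites and not at others. At 584 the stop fraction was 0.440% untreated and 8.79% with DMS, and at 604 it was 0.327% and 5.12%, both inside the range of the lettered DMS libraries. At 461 it reached 23.1%, above the highest lettered DMS library at 5.42%, from 0.903% untreated. At 361 it went from 6.67% to 27.7%, and the untreated value was already above the highest lettered DMS library at 6.02%. Mutation fractions went from 0.322% to 1.79% at 504, from 0.474% to 1.70% at 418 and from 0.765% to 2.01% at 341.

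With Mn2+, mutation fractions were higher with DMS at 7 of the 11 called positions and lower at 1, with a median difference of 0.703 points, and at 43.5% of the other positions. They went from 0.382% to 1.70% at 504, from 0.469% to 1.79% at 418, from 0.751% to 2.30% at 341 and from 0.245% to 0.948% at 569. At 604, 594 and 670 both libraries were at 0%, and at 669 the value went from 4.44% to 0%. Stop fractions were higher with DMS at 15 of the 26 called stops and lower at 8, against 28.3% higher among the other positions. The Mn2+ libraries had many zeros here, with stop fractions of 0 at 30.0% of positions untreated and 37.4% with DMS. In the window from 603 to 636 the share was 82.4% in both. Over the first 170 positions both had none. Position 604, in that window, went from 0% to 5.26%. Position 584, in a window with 58.8% zeros in both, went from 0% to 3.70%. The values of 5.26%, 3.70% and, for mutations at 669, 4.44% equal ratios of small whole numbers and may rest on few reads.

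Untreated stop fractions at single positions were both higher and lower in the library with Mn2+. The largest difference was at 518, with 42.5% without and 2.22% with Mn2+. Where no zeros were near, position 485 had 17.5% without and 2.57% with Mn2+, and 449 had 22.7% and 14.02%. At 520 the stop fraction was 16.4% and 0%, and both 518 and 520 lie in a window with 44.1% zeros. The largest rises, at 571 (0.659% to 13.6%), 580 (0.265% to 11.9%), 573 (0.435% to 5.49%) and 572 (0.452% to 4.65%), lay within 10 positions of each other in a window with 58.8% zeros. In mutations the largest differences were at 638, 626, 634 and 632 upward and at 576, 581, 650 and 651 downward, the last 4 listed at 0% with Mn2+. All 8 lie in windows with 50.0% to 67.6% zeros in the untreated Mn2+ library. Several of the Mn2+ values, such as 2.22% at 518 and 4.65% at 572, may likewise rest on few reads. With 1 library each, none of these differences could be tested.

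Set against the rest of 18S, the mean mutation difference with DMS was smaller in this stretch. The mean mutation difference was 0.0359 ± 0.0578 points over its 340 positions (SD, n = 8 pairs; exact sign-flip permutation test, two-sided, p = 0.148) and 0.0958 ± 0.0431 over the other 1500 positions. The stretch minus the rest was -0.0599 ± 0.0353 points and negative in 8 of 8 pairs (exact sign-flip permutation test, p = 0.00781, the smallest that 8 pairs allow). Tests of the stretch against the rest were not planned. They take the 2 pairs of a library set as independent, so the p-value may overstate the evidence. In sets 1 to 4 the stretch minus the rest was -0.0813, -0.0371, -0.0630 and -0.0582 points. It was -0.0594 with the 10 most changed positions left out of each, with the same p. With medians in place of means it was -0.00605 (exact p = 0.492), so the difference was not called for the median position. For stops the stretch minus the rest was 0.0128 ± 0.103 points (exact sign-flip permutation test, p = 0.750).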

How the data were processed

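The authors deposited 1 table with a stop fraction and a mutation fraction for each library and position. The tools cutadapt and Bowtie2 were run by the authors, per the submitters' processing notes. Their versions, the rule that calls a stop or a mutation, the denominators, the reference and any filter are not given in the sources used here. Reads lost before a position and PCR copies can move such fractions. The deposited control-subtracted columns equalled the subtraction to within 1e-09 percentage points, so differences were computed from the fractions.

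The 16 lettered libraries are named only untreated or DMS, so each was given a treatment only and none was matched to a single sample or kind of reverse transcription. The 4 others were matched through the table's Mn experiment. A further 9 library names were not used. Pairing follows the table's control column, and within pairs the log2 deviations from the group means correlated at 0.233 to 0.693 in stops and 0.140 to 0.667 in mutations. A control other than its own correlated more closely with the DMS library in pairs 2, 3 and 5 for stops (up to 0.667) and in pairs 2, 3, 5 and 7 for mutations (up to 0.708). Replicates were grown in duplicate plates, per the labels, but how libraries relate to plates is not stated, so p-values measure only the spread between these pairs, which may be technical.

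limma 3.58.1 in R 4.3.3 was used with a mean trend, tested on simulated data first. The simulated libraries were independent and of equal depth, without pair or set effects. That test therefore does not cover the many zeros and the set differences seen here. Stop values were complete in the 16 libraries up to position 1776. Positions named are the 10 highest and 4 lowest called differences per readout, the 6 highest untreated medians, and the 4 largest Mn2+ differences in each direction. Other positions were chosen after their values were seen. The positions, lists and rules were chosen with earlier results of these data known. Alternatives were other pseudocounts, percentage points, a low-value filter, no pairing, no trend, and leaving out pairs, plus alternatives by library set and by zeros that were added after the data were seen. Python 3.11.15, pandas 2.3.3, NumPy 2.4.6 and Matplotlib 3.10.9 made the summaries and figures.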

Additional observations from a re-analysis of the deposited data

Results flagged for a closer look

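These values stood apart from the other 7 of their group of 8 by Dixon's criterion, which independent normal values meet in about 1 group of 20. The fractions here are bounded at 0 and their libraries come in sets, so that rate need not hold. In the control of pair 5, stops were 10.6% at 569 (next 3.26%), 1.71% at 361 (next 1.04%) and 0.318% at 565 (next 0.146%), and mutations 0.554% at 341 (next 0.261%). In the control of pair 4, stops were 8.91% at 594 (next 3.29%), 2.70% at 571, 6.52% at 573 and 13.95% at 572 (next 4.00%). In that of pair 3, mutations were 2.27% at 576. The controls of pairs 3 and 4 had many zeros, and their flagged values may rest on few reads. The DMS library of pair 6 was lowest in stops at 361 (3.29%, next 5.03%) and 365 (0.133%) and highest in mutations at 669 (2.84%, next 1.44%), where its difference was 1.90 points (next 0.651). The DMS library of pair 3 was highest in stops at 580 (1.06%). The mean stop difference of pair 4 was -0.297 points, and the next lowest pair had 0.0336.

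Signs of the DMS effect with and without Mn2+ were compared for the positions named by their called difference and for means over the stretch. They were opposite in 4 cases, with 1 library each and no test of the difference. Beyond these 4, called stops at 399, 532, 540, 544 and 555 also had opposite signs. For stops at 639 the effect was 0.952 points with and -0.0217 without Mn2+, and at 340 it was -0.0344 and 0.188. For mutations at 669 it was -4.44 and 1.07, and for the mean mutation difference over the 340 positions it was -0.267 and 0.115. The untreated value with Mn2+ at 669, 4.44%, may rest on few reads.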

How the results depend on the processing

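The pairing follows the table's control column. With no replicate block, stops were called higher at 21 positions and lower at 0, and mutations higher at 7. Of the 27 called stops, 11 were called under each of the 20 alternatives (349, 361, 461, 465, 466, 556, 569, 579, 584, 604 and 629), and of the 11 called mutations 3. In percentage points 15 stops and 5 mutations were higher and 0 stops lower. Leaving out library sets 1, 2, 3 or 4 gave 14, 17, 21 or 16 higher stops and 7, 6, 4 or 4 higher mutations, and 1 mutation lower without set 2. With a pseudocount of 0.01%, 6 mutations were higher. Without pairs 2, 3 and 4, 5 were. The 1 lower stop became 2 with no trend and 0 with a pseudocount of 1%, with the set as a random block, without pairs 2, 3 and 4, and without sets 2, 3 or 4. Without any 1 pair, 18 to 27 stops and 5 to 8 mutations were higher, and 0 to 1 of either was lower. Fewer pairs also give a weaker test. Otherwise the cause was not tested.

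The mean stop difference changed sign as a median (-0.00553), without the 10 most changed positions (-0.000172) and within set 2 (-0.0660), and ranged from 0.0569 to 0.135 without 1 pair. That of mutations changed sign without those 10 (-0.00383) and within set 1 (-0.0101), and ranged from 0.0205 to 0.0441. Stops in the stretch minus the rest changed sign as a median (-0.00596) and without those 10 (-0.0153), and ranged from -0.00302 to 0.0436. For mutations it ranged from -0.0676 to -0.0513, and was -0.00605 as a median. Without pairs 2, 3 and 4 it was -0.0656, where 5 pairs cannot reach an exact p under 0.0625. At positions above 0 in all 4 libraries, the Mn2+ difference of DMS libraries was 0.312 in stops and 0.0133 in mutations, against 0.0982 and -0.331 over all positions. As a median the latter was -0.0698, and that of untreated mutations was -0.00658. The 6 leading untreated positions shared at least 4 with a ranking by the mean. Depth is not given and limits all values near 0.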
